A study of Mus musculus with 2 samples.

Results

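Heat shock proteins and their cochaperones were examined in skeletal muscle of RXRγ mice and control mice. The genes were chosen by symbol: all genes whose symbol starts with Hspa, Hspb, Hspd1, Hspe1, Hsph1, Hsp90, Dnaja, Dnajb or Dnajc, or with Cct or Bag and a digit, together with Tcp1 and Cryab. The rule found 89 genes on 213 probe sets, of 18194 genes that the platform annotation names alone for a probe set. Each probe set consists of short oligonucleotides, whose readings are combined into 1 signal. RXRγ mice (line 4-3) carry RXRγ, a nuclear receptor, as a transgene driven by the human α-actin promoter, so that its expression is directed to skeletal muscle. Control mice are non-transgenic mice matched in sex and age. C57BL6 is the only strain that the methods name, without stating it for either group on the arrays. All mice were females at 4 months of age, without further treatment, and food (CRF-1) is described as freely available for the RXRγ mice. Muscle RNA was pooled within each genotype, from 5 animals per pool according to the methods and 3 according to the sample labels, and each pool was hybridized to 1 Affymetrix MG430 array. Only 1 transgenic line was measured. Replicate arrays are lacking, so the differences carry no error and could not be tested, and the low number of arrays limits how precise they are.

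Heat shock proteins are molecular chaperones, which bind unfolded or partly folded proteins, keep them from clumping and help them to reach their folded state. Hsp70 proteins bind and release short stretches of unfolded chain in a cycle driven by ATP. J-domain proteins (Dnaj) bring clients to Hsp70 and start ATP hydrolysis, and nucleotide exchange factors (Hsp110 and Bag proteins) end the cycle. Small heat shock proteins hold clients without ATP, Hsp90 acts late on kinases and steroid receptors, and the chaperonins enclose clients in a chamber. Many of these genes are switched on by heat and other proteotoxic stress through heat shock factor 1, which binds repeats of the unit GAA in alternating orientation. In skeletal muscle, αB-crystallin (Cryab) and other small heat shock proteins are abundant and associate with the sarcomere, and exercise induces Hsp70.

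The deposited values are signals on a linear scale, with a mean of 100.0 for either array once the 2% brightest and the 2% dimmest probe sets were set aside. Medians were 22.7 (control mice) and 24.3 (RXRγ mice), and 8091 and 8128 probe sets exceeded 150. The transgene checked the labels: the Rxrg signal was 9172.1 in RXRγ mice, against 334.5 in controls. Of 10 markers of skeletal muscle fibres, all were measured, 3 were lower in RXRγ mice (Ckm, Myh4 and Ttn) and none was higher, and their summed signal was 104079 against 117551 in control mice. The labelled tissue is therefore borne out by its markers on both arrays. A gene was taken as measured when at least 1 of its probe sets had a signal above 250 on the brighter array. Its value is the mean log2 ratio of RXRγ over control mice over those probe sets, and a gene was called higher or lower from a log2 ratio of 0.4 in that direction. Where probe sets of a measured gene are given below, they are those above 250, and dimmer ones are left out. The values 250 and 0.4 are taken from the study's methods, which also asked for a present call and listed increases only. The use of the brighter array, the mean over probe sets and the calls of lower genes were chosen here.

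Of the 89 genes, 49 were measured, on 91 probe sets. In RXRγ mice 12 of them (24.5%) were higher and 6 (12.2%) were lower, while 31 stayed within 0.4. Over all 3780 measured genes, 16.8% were higher and 20.1% were lower. At a limit of 1 on the log2 scale, 3 members were higher (Hspa1b, Hspb1 and Hspa1a) and 1 was lower (Dnajb5), where 5.05% and 4.1% of all genes passed in the same directions. The median log2 ratio of the members was 0.04, against -0.04 over all genes, and 57.1% of the members and 46.5% of all genes had a ratio above 0. The members thus had a larger share of higher and a smaller share of lower genes than the array, which describes these arrays and is not a test. Among called genes, Hspa1a and Bag2 passed the filter only through RXRγ mice (170.0 and 237.8 in control mice). So did the Hspa1b probe sets with 110.9 and 188.8 in control mice and a Cct4 probe set with 171.8. Dnajb5 probe sets with 147.0 and 189.3 in RXRγ mice passed through control mice. The same holds for a Dnaja2 probe set with 179.1 and a Dnajc21 probe set with 160.9 in RXRγ mice. With 250 asked of both arrays, 9 of 44 members were higher (20.5%, against 12.1% of all genes). In that setting 6 were lower (13.6%, against 16.4%), and Cct4 lost its call. Dnaja2 and Dnajc21 stayed lower there, at log2 ratios of -0.43 and -0.59. The larger share of higher genes was not kept with weaker filters: it was 18.8% against 18.3% of all genes with a filter of 150, and 25.8% against 28.6% without a filter. The split also depends on the scaling. With both arrays scaled to the same median signal, 9 members were higher (18.4%, against 13.3% of all genes) and 10 were lower (20.4%, against 26.0%). Among the 28 members with several probe sets, the median distance between the highest and lowest ratio of a gene was 0.25 (0.20 over 1213 such genes of the whole array), so that values near 0.4 are not firm. Of the 18 genes called, 13 had all their probe sets past 0.4, and 5 of these rest on a single probe set. In RNA of whole muscle, fewer cells of a type and less RNA per cell cannot be told apart.

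**Figure D1:**
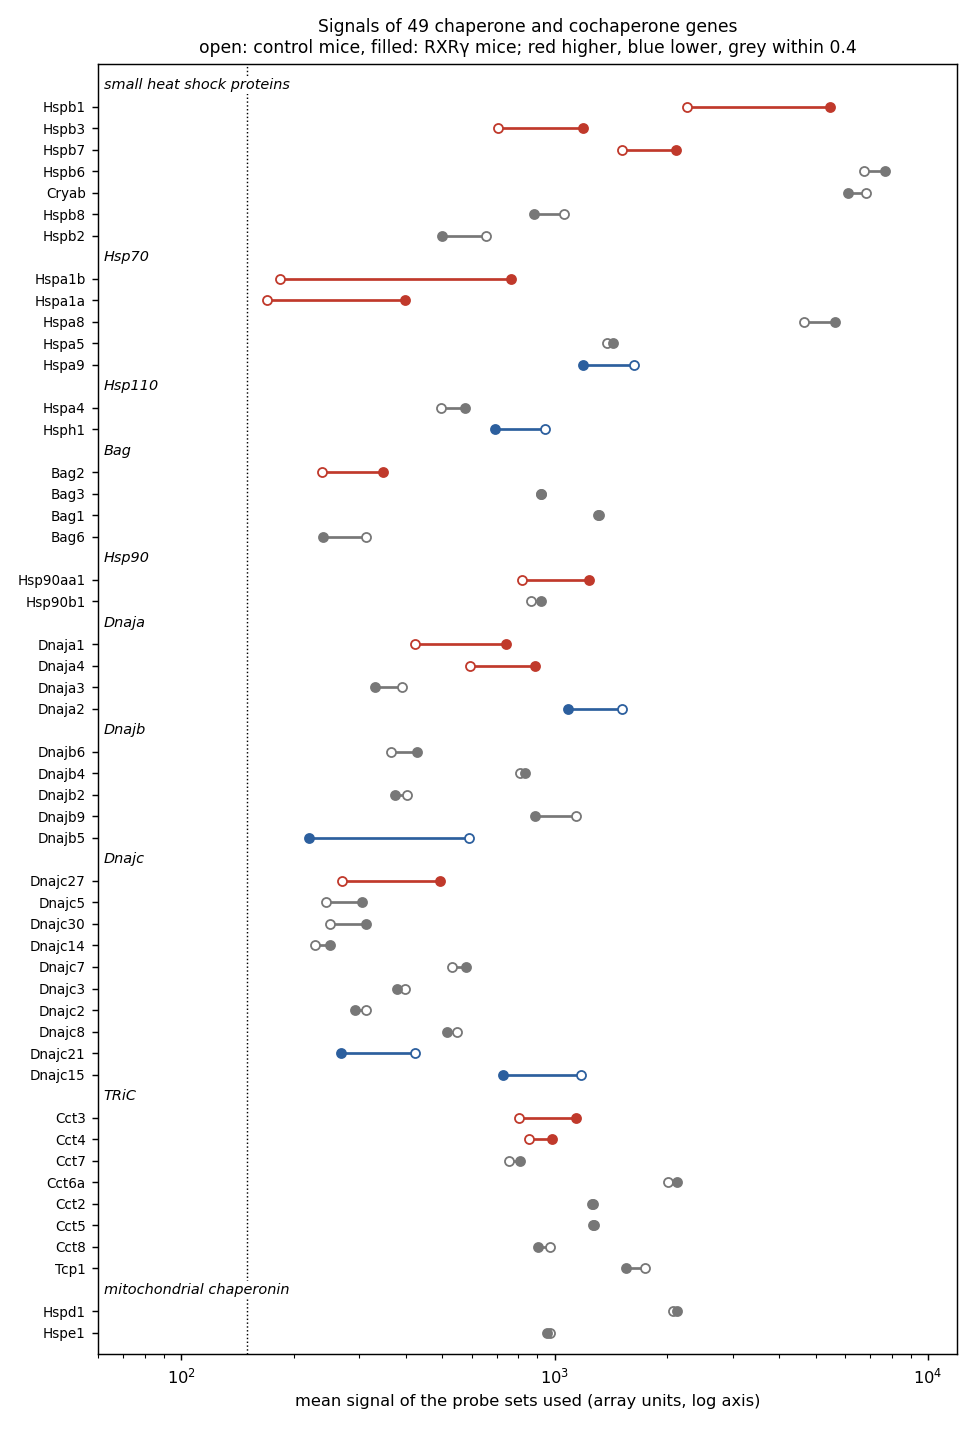
Signals of the 49 measured members by family, averaged over probe sets and drawn in array units with a log scale, as open circles for the control array and filled circles for the RXRγ array. Colour gives the call, red for 12 higher genes, blue for 6 lower genes and grey for 31 within 0.4; the widest gaps are those of Hspa1b (183.9 and 765.0) and Dnajb5 (588.8 and 220.3).

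**Figure D2:**
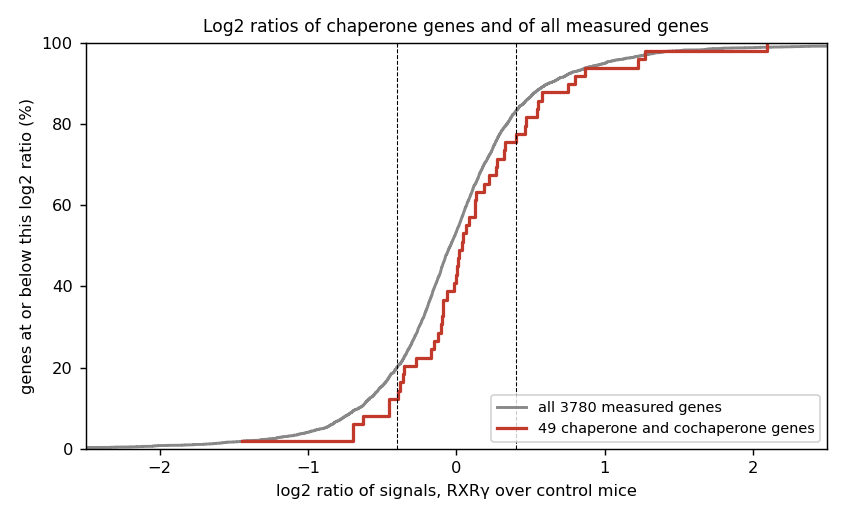
Cumulative share of genes, in percent, at or below each log2 ratio of RXRγ over control mice, in red for the 49 heat shock protein and cochaperone genes and in grey for all 3780 measured genes, with dashed lines at 0.4 in either direction. The medians are 0.04 and -0.04, and the red line lies to the right of the grey over most of the range between the dashed lines.

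The heat-inducible Hsp70 genes were higher in RXRγ mice. Hspa1b had signals of 539.4, 792.1 and 963.4 at its 3 probe sets, against 110.9, 188.8 and 252.1 in control mice. After the first, the log2 ratios of the other two were 2.07 and 1.93. Since 110.9 is under 150, a level taken here as too low for a fold, Hspa1b was at least 3.86-fold higher, which is its mean with that signal set to 150. The log2 ratio obtained in this way, 1.95, was still the largest of the 49 members. Hspa1a, its neighbour on the chromosome, had a signal of 397.6 against 170.0 at 1 probe set, a 2.34-fold difference. The proteins encoded by both genes are nearly identical, and short oligonucleotides may not separate their transcripts. Taken as 1 gene, a choice made after the data were seen, they leave 11 members higher.

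The constitutive and organellar Hsp70 genes stayed nearer to their control levels. Hspa8, the constitutive cytosolic Hsp70, averaged 5653 in RXRγ mice and 4665 in control mice, a log2 ratio of 0.27 that lay under the limit at all its probe sets (0.21 to 0.34). Hspa5, also known as BiP, the Hsp70 of the endoplasmic reticulum, had 1436.6 and 1381.6, and its probe sets pointed in opposite directions (-0.14 and 0.27). Hspa9, the mitochondrial Hsp70, was lower, at 1188.7 against 1627.8 (log2 ratio -0.45). So within 1 family the inducible cytosolic members were higher, the constitutive and endoplasmic reticulum members stayed within 0.4, and the mitochondrial member was lower. The third gene of the inducible cluster, Hspa1l, which is mainly known from testis, did not reach 250, with 105.0 in RXRγ mice against 158.8. Hspa13 had the highest signals of the unmeasured Hsp70 genes, 199.8 and 223.7.

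Among the nucleotide exchange factors and other partners of Hsp70, 2 Hsp110 genes were measured. Hsph1, the heat-inducible Hsp110, was lower in RXRγ mice, with 605.4 against 901.3 at the first probe set and 780.1 against 980.6 at the second. Its mean log2 ratio was -0.45, but the second probe set alone gave -0.33, which is within the limit. Hspa4, a constitutive Hsp110, had 577.1 and 495.5 (log2 ratio 0.22), and Hspa4l had 128.3 and 107.4 and was not measured. Hsph1 thus went the opposite way to Hspa1a and Hspa1b. Of the 4 Bag genes measured, Bag2, which encodes an inhibitor of the ubiquitin ligase Chip, was higher, at 346.1 against 237.8 (log2 ratio 0.54). Bag3, which with small heat shock proteins directs damaged sarcomere proteins to autophagy, stood at 917.8 in RXRγ mice and at 920 in control mice. Bag1 had 1303.2 and 1317.4, and Bag6 had 239.2 and 312.1 (log2 ratio -0.38), just inside the limit. Bag5 had 143.7 and 156.6 and was not measured, and neither Hspbp1 (168.3 and 170.6) nor Hspbap1, which the rule takes in through their symbols, reached 250.

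Of 9 small heat shock protein genes, 7 were measured (median log2 ratio 0.18). In RXRγ mice 3 of them were higher (42.9%, against 16.8% of all genes) and none was lower (against 20.1%). With so few genes, nothing is read from these counts. Hspb1, also known as Hsp25 in mouse, had a signal of 5859.3 against 2469.5 at the first probe set and 5046.1 against 2064.8 at the second. Its mean was 2.41-fold higher and ranked 114 from the top among all 3780 genes. Hspb3, a muscle-specific member, had 1189.2 against 706.9 (1.68-fold). Hspb7, the cardiovascular member, had 2115.5 against 1516.7, with log2 ratios of 0.35, 0.57 and 0.47 at its probe sets, and its call was lost under median scaling (0.37). The genes Cryab and Hspb2, which lie next to each other on the chromosome, both stayed within the limit. Cryab averaged 6127 against 6832 in control mice (log2 ratios -0.10 and -0.20), and Hspb2 had 498.3 against 655.2 (log2 ratio -0.39). Hspb8, the partner of Bag3, had 883.3 against 1063, with log2 ratios from -0.62 to -0.17. Hspb6, or Hsp20, had 7676 against 6759 (log2 ratio 0.18). Hspb11 did not reach 250 (101.9 against 109.8).

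Hsp90aa1, the inducible cytosolic Hsp90, was higher in RXRγ mice. Its probe sets had signals of 1067.7 against 666.1, 495.8 against 390.6 and 2154.9 against 1394.2, log2 ratios of 0.68, 0.34 and 0.63. All 3 probe sets were higher, and only the middle ratio lay under the limit. Without a filter on low signals, which brings in dim probe sets, the mean of this gene turned to -0.38. Hsp90b1, the Hsp90 of the endoplasmic reticulum, had 918.2 and 865.0 (log2 ratio 0.05). The platform annotation names no probe set for Hsp90ab1, the constitutive Hsp90, and that gene was not analysed here.

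The J-domain genes were called in shares close to those of the array. Of 44 listed, 19 were measured, of which 3 were higher (15.8%, against 16.8% of all genes) and 4 lower (21.1%, against 20.1%). Their median log2 ratio was -0.07. The cytosolic Dnaja genes held both directions. Dnaja1, which encodes the J-domain protein Hdj2, had signals of 1073.2 against 601.6, 525.0 against 301.3 and 624.4 against 366.7. Its 3 log2 ratios lay close together, at 0.84, 0.80 and 0.77, and the mean was 1.74-fold higher in RXRγ mice. Dnaja4, a heat-inducible relative, had a mean of 887.9 against 591.7, with 0.79, 0.46 and 0.48 at its probe sets. Dnaja2 was lower at all 3 of its probe sets above 250, with 179.1 against 364.4, 737.1 against 979.5 and 2341.6 against 3203.8 (log2 ratios -1.02, -0.41 and -0.45). Dnaja3, a mitochondrial J-domain protein also known as Tid1, had 330.8 and 390.1 (log2 ratio -0.27).

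Dnajb5 had the largest decrease of all members. Its probe sets had signals of 147.0 against 456.2, 189.3 against 491.7 and 324.5 against 818.6, and the log2 ratios of the other two, after the first, were -1.38 and -1.33. With the signal under 150 set to 150, it was at least 2.71-fold lower in RXRγ mice (log2 ratio -1.44). None of the other 4 measured Dnajb genes was called. Dnajb6, which keeps aggregation-prone proteins soluble and is mutated in a limb-girdle muscular dystrophy, had log2 ratios of 0.11 and 0.42, and Dnajb9, a J-domain protein of the endoplasmic reticulum, had 887.6 against 1142 (log2 ratio -0.36). Dnajb2 and Dnajb4 had log2 ratios of -0.10 and 0.02. Dnajb1, the main heat-inducible partner of Hsp70 and also known as Hsp40, did not reach 250. Its signals were 217.5 in RXRγ mice against 87.4 in control mice at the first probe set and 204.4 against 80.5 at the second. Both control signals were too low for a fold, and the gene is in none of the counts. Dnajb11, of the endoplasmic reticulum, had 223.9 and 240.2.

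Of 27 Dnajc genes, 10 were measured. Dnajc27, a small GTPase with a J domain also known as Rbj, was higher in RXRγ mice, at 492.1 against 269.7 (log2 ratio 0.87). Dnajc15, a J-domain protein of the mitochondrial inner membrane, was lower, at 726.5 against 1180.6 (log2 ratio -0.70). Dnajc21, which acts in ribosome maturation, was lower as well, at 267.8 against 423.5, with -0.81 and -0.59 at its probe sets. The other 7 lay between -0.09 and 0.33, with Dnajc5, or cysteine string protein, at the upper end and Dnajc8 and Dnajc2 at the lower. In between were Dnajc3 (-0.07), which inhibits eIF2α kinases, Dnajc7 (0.12), a partner of both Hsp70 and Hsp90, Dnajc14 (0.13) and Dnajc30 (0.32). Of the remaining 17, Dnajc12 had the highest signals, 239.4 in RXRγ mice and 223.2 in control mice.

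Most chaperonin genes stayed within 0.4. Of 10 genes named for subunits of the cytosolic chaperonin TRiC or their relatives, 8 were measured, with a median log2 ratio of 0.05. Cct3 was higher, with a mean of 1143.1 against 801.6 and log2 ratios between 0.35 and 0.65 at its 4 probe sets above 250, and it fell under the limit with median scaling (0.37) or no filter (0.23). Cct4 was called higher at 0.40, with 984.9 against 853.8, but its probe sets had 0.16, 0.05, 0.38 and 1.02, and the call was lost in 7 of 11 alternatives. It had the widest span of all members (0.97). Tcp1, the subunit Cct1, had 1553.6 against 1747.6 (log2 ratio -0.17), and Cct2, Cct5, Cct6a, Cct7 and Cct8 had log2 ratios of 0.01, 0.01, 0.08, 0.13 and -0.10. TRiC works as a ring that holds each kind of subunit, and its measured subunits other than Cct3 and Cct4 were even between the genotypes to within 0.2 on the log2 scale. The testis subunit Cct6b and the related Cct8l1 were far under 150 on both arrays. Hspd1 and Hspe1, which encode the mitochondrial chaperonin Hsp60 and its lid Hsp10, had 2130.5 and 2074.8, and 954.7 and 969.3. Their log2 ratios were 0.04 and -0.13, with -0.31 and 0.06 at the probe sets of Hspe1.

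**Figure D3:**
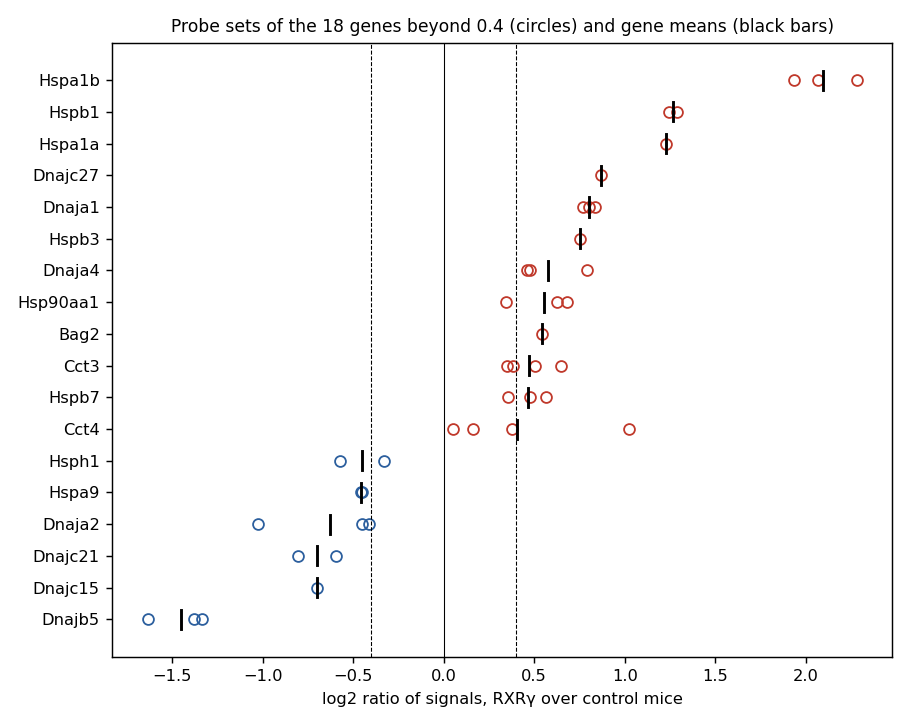
log2 ratio of RXRγ over control mice at each probe set above 250 of the 18 called genes, 1 circle per probe set, with black bars at the gene means and dashed lines at 0.4 in either direction. The 3 probe sets of Dnaja1 run from 0.77 to 0.84 and those of Cct4 from 0.05 to 1.02, and the outermost circles of Hspa1b and Dnajb5 rest on a signal under 150.

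Some members were also read by compartment, an arrangement made after the values were seen. Of 9 cytosolic genes of the heat shock response, 8 were measured, 5 were higher (Hspa1a, Hspa1b, Hspb1, Dnaja1 and Hsp90aa1) and 1 was lower (Hsph1). Of 7 mitochondrial genes, 6 were measured, none was higher and 2 were lower (Hspa9 and Dnajc15). Of 8 genes of the endoplasmic reticulum, 4 were measured and all stayed within the limit (-0.36 to 0.07). Over all genes 16.8% were higher and 20.1% lower, and with so few genes in each group, put together from known values, nothing is read from these counts.

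Promoter sequences were read for the members, since heat shock factor 1 binds at the promoters of the inducible genes. RefSeq windows on GRCm38.p6, from 250 bases before to 50 after the annotated start of transcription, matched 73 of the 89 members and 40 of the 49 measured. Cct4, Cryab, Dnajc2, Dnajc30, Dnajc5, Hsp90aa1, Hspa8, Hspa9 and Hspb2 are the measured members without one. The windows below show the 150 bases before the start for the higher genes with a match there, for Dnajb6 and for Hspd1. Capitals mark a pair of GAA units in opposite orientation (GAANNTTC or TTCNNGAA) or overlapping pairs of them, and Dnajb6 and Hspd1 hold the element of 3 units.
Hspa1b (chr17:34959239-34959388, minus strand): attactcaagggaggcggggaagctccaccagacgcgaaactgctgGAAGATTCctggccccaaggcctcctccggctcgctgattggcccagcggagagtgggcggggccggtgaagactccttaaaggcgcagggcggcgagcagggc
Hspa1a (chr17:34972157-34972306, minus strand): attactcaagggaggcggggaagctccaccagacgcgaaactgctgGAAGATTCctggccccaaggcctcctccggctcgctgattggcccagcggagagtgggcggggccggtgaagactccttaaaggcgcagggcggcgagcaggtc
Hspb1 (chr5:135887769-135887918, plus strand): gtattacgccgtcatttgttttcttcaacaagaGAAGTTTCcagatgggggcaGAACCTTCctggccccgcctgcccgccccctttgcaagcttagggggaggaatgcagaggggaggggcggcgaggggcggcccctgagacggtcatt
Dnaja1 (chr4:40722318-40722467, plus strand): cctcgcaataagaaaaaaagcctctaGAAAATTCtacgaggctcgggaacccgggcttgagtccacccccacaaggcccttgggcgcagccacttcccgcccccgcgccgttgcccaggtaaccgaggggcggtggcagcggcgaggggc
Dnaja4 (chr9:54699409-54699558, plus strand): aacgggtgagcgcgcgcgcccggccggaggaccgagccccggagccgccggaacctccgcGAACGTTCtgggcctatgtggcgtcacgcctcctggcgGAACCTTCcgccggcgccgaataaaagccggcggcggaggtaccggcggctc
Dnajb6 (chr5:29735748-29735897, plus strand): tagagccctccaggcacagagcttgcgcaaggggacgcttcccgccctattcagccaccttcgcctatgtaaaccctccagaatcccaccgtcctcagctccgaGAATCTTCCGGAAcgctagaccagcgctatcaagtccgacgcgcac
Hspd1 (chr1:55087933-55088082, minus strand): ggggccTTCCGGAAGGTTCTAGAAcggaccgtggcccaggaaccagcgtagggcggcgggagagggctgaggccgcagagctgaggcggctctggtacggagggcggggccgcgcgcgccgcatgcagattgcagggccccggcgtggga

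The windows of Hspa1a and Hspa1b were identical at 296 of 300 bases (98.7%), so that they are near copies and not separate cases. Counted from the start, with -1 as the base before it, their element begins at -104. Hspb1 has elements at -117 and -97, Dnaja4 at -90 and -52, and Dnaja1 at -124. The element of 2 units was found in 7 of the 10 higher members with a window, with Hspb3 (-224) and Dnajc27 (-213) further from the start. With Hspa1a and Hspa1b taken as 1 gene, it was in 6 of 9. It was found in 1 of 5 lower members (Hsph1) and in 10 of 25 within the limit, which makes 18 of 40 measured members (45%). Over all 27025 genes with windows 17.0% hold it, and among measured genes 16.2% of the higher, 13.2% of the lower and 13.3% of the rest do. The longer element of 3 units (GAANNTTCNNGAA or TTCNNGAANNTTC), which always contains the shorter one, stands in 0.662% of all genes and in 4 of 73 members (5.48%). These 4 are Hspd1, Hspe1, Dnajb6 and Hsph1, and none of them was higher in RXRγ mice. Only perfect matches were counted, and the higher members Hsp90aa1 and Cct4 have no window. The windows of Hspd1 and Hspe1 overlap, because both genes are read from 1 shared region, so that they hold the same element. The 3-unit match in Hsph1 lies after the start, while a 2-unit match lies before it, at -33 or -54 depending on the annotated start used. The direct repeat to which RXR binds with PPARs (AGGTCANAGGTCA or TGACCTNTGACCT) was in none of the 73 members and in 13 of the 27025 genes (0.0481%). At that share most sets of 73 genes would hold none, so nothing is read from its absence here. The study searched wider promoter regions of other genes, with motif matrices rather than exact letters. All motifs were searched on both strands, a match is a description of the letters only, and no binding was measured.

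**Figure D4:**
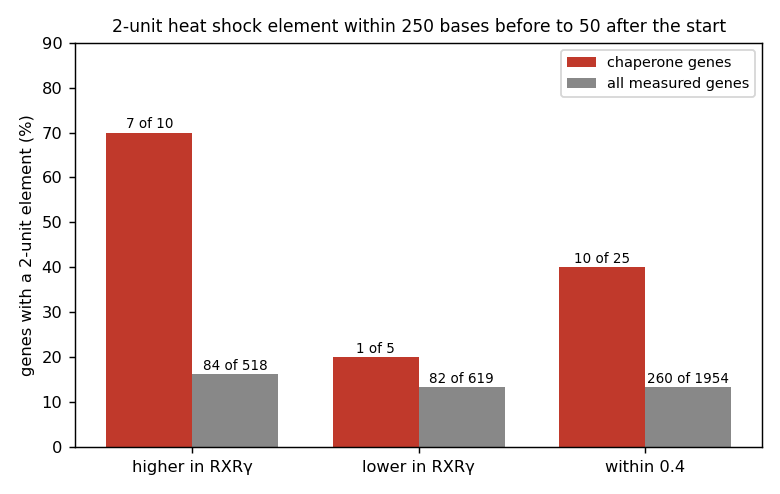
Share of genes whose promoter window holds the pair of GAA units, in percent, for members and for all measured genes, split by whether they were higher, lower or within 0.4 in RXRγ mice, with the number of genes that hold it, out of those with a window, over each bar. The share was 70% in higher members (7 of 10) or 6 of 9 with Hspa1a and Hspa1b as 1 gene. It was 20% in lower members (1 of 5), 40% in members within 0.4 (10 of 25) and 16.2% in all higher genes.

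Of 51 other genes of protein folding, 37 were measured, 3 of them higher in RXRγ mice (8.11%, against 16.8% of all genes) and 4 lower (10.8%, against 20.1%). The median log2 ratio of the list was -0.03. Of 17 measured cochaperones of Hsp90 and Hsp70, Stub1, which encodes the ubiquitin ligase Chip, was called higher, at 813.5 against 571.3 (log2 ratio 0.41, with 0.26 and 0.56 at its probe sets). The call was lost under median scaling (0.31) and with 32 added to all signals (0.39). Fkbp4 was lower, at 279.6 against 393.7 (log2 ratio -0.49). Fkbp5, a partner of steroid receptors and a target of glucocorticoids, had 113.3 against 315.5 and was at least 2.10-fold lower. The myosin chaperone gene Unc45b had 2240.5 and 2040.2 (log2 ratio 0.14), and Itgb1bp2, or melusin, had a log2 ratio of 0.25. Stip1, which joins Hsp70 to Hsp90, and Ahsa1, which stimulates Hsp90, had 0.10 and -0.03. None of 6 prefoldin genes was called (median -0.21), among them Vbp1 (-0.32). In mitochondria, Grpel1, the exchange factor of Hspa9, was higher, at 905.7 against 562.3 (log2 ratio 0.69), whereas Hspa9 itself was lower. The subunits of the protease that clears unfolded mitochondrial proteins were lower, Clpx at 326.6 against 464.4 and Clpp at a log2 ratio of -0.41, and the call of Clpp was lost in 5 of 10 alternatives, which gave up to -0.33. In the endoplasmic reticulum, Manf, which is induced when unfolded proteins build up there, was higher, at 629.1 against 389.4 (log2 ratio 0.69), while Hspa5 and Hsp90b1 stayed within the limit. The heat shock factors were not measured: Hsf2 had 9.3 and 27.8, Hsf4 had 29.5 and 31.4, and the annotation names no probe set for Hsf1.

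Markers of slow fibres moved between the arrays, and small heat shock proteins are known to be more abundant in slow muscle. Of 9 measured slow fibre markers, 8 were lower in RXRγ mice and Myoz2 stayed within the limit (0.04), with a median log2 ratio of -1.57. Over all measured genes 20.1% were lower. Their summed signal, Myh7b included, was 4571 against 13373 in control mice, and Myh7, the slow myosin heavy chain, had 303.2 against 1754.4. Of the measured small heat shock protein genes, Hspb1, Hspb3 and Hspb7 were higher on the same arrays. Within the limit were Cryab (-0.15), Hspb2 (-0.39), Hspb8 (-0.35) and Hspb6 (0.18). The part of fibre makeup in the values of the chaperone genes was not tested. Of the other cell types listed, 3 of 7 markers of adipocytes, 3 of 6 of macrophages and all 6 of fibroblasts were measured, and none passed 0.4. Summed over all listed markers of each type, unmeasured ones included, the signals in RXRγ and control mice were 6494.4 and 5947.6, 1584 and 1368.3, and 11227.5 and 10589.6. No marker of endothelial cells, red blood cells or Schwann cells reached 250.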

How the data were processed

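Skeletal muscle RNA, pooled by genotype, was hybridized as biotin-labelled cRNA to 1 array per genotype. The deposited intensity values are probe set signals that the authors made with Affymetrix Gene Chip 3.1 software. The scaling algorithm and genome build are not given in the sources used here. No spread between arrays could be estimated. The software's present or absent calls were not used here.

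Probe sets were named from GEO's platform annotation by a single gene symbol (34958 of 45101; 932 name several genes and 9211 are not listed). No pseudocount was used for the log2 ratios, and genes whose probe sets passed 0.4 in both directions were called neither. Signals under 150 gave no fold. The members, lists and tests were chosen with earlier results of these data known, and the promoter motifs and compartments after the values were seen.

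Genes named are the called members, the 3 brightest of each family, a fixed set of well-known members, the brightest unmeasured member of each family, and the called and 3 brightest other folding genes. The remaining measured members, further folding genes and markers are named to complete their lists, chosen after their values were seen.

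Alternatives were median scaling, quantile normalization, loess centring (limma 3.58.1, R 4.3.3), adding 32 to all signals, a floor of 150, other filters (150 or 500 on the brighter array, 250 on both, none), the brightest probe set, no _x_at or _s_at probe sets, a limit of 1, and counting probe sets. Steps were tested on simulated data. Python 3.11.15 with pandas 2.3.3, numpy 2.4.6, scipy 1.17.1 and matplotlib 3.10.9 was used.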

Additional observations from a re-analysis of the deposited data

How the results depend on the processing

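Of the 18 called members, 12 kept their call under all alternatives of scaling, low signals, filter and choice of probe sets that gave them a value, and at a limit of 1 only Hspa1a, Hspa1b, Hspb1 and Dnajb5 were left. Of the 12, Hspa1a and Bag2 had a value in only 9 of 11 alternatives and Dnajc27 in 10, since stricter filters removed them. Cct4 lost its call in 7 of 11 alternatives (0.05 with its brightest probe set), Cct3 and Hspb7 lost it under median scaling, Cct3, Hsp90aa1 and Hspa9 without a filter, and Hsph1 with its brightest probe set. Of the other folding genes, Stub1 lost it in 2 of 11 alternatives and Clpp in 5 of 10. The number of members higher in RXRγ mice, 12, was 23 without a filter (25.8%, against 28.6% of all genes), 3 at a limit of 1 (6.12% against 5.05%) and 24 when probe sets were counted (26.4% against 17.2%), and it was 8 above a signal of 500 (21.6% against 16.4%). The share of lower genes was smaller among members than among all genes in each of these settings and under median scaling (20.4% against 26.0%). The number lower, 6, was 10 under median scaling, 12 without a filter, 1 at a limit of 1 and 14 probe sets. Of the other folding genes, 3 were higher, with 5 without a filter, 0 at a limit of 1 and 5 probe sets. The 4 lower became 8 under median scaling, 1 above a signal of 500, 7 without a filter, 1 at a limit of 1 and 7 probe sets. Without a filter, Hsp90aa1 turned to -0.38 and Fkbp4 to 0.77, since dim probe sets then enter their means. The median of the members ran from -0.06 under median scaling to 0.09 with loess centring. No paired analysis was possible because each genotype has 1 array. Signals under 150 limit the folds of Hspa1b, Dnajb5 and Fkbp5.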
